A study of Homo sapiens with 2 samples.

Results

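To describe how the enzymes that make, lengthen and desaturate fatty acids behaved in head and neck squamous cell carcinoma (HNSCC) cells under ferroptotic stress, 10 genes were followed by RNA sequencing in the HSC-3 line. The genes were ACLY, ACSS2, ACACA, FASN, ELOVL5, ELOVL6, SCD, SCD5, FADS1 and FADS2, out of 60616 genes in the deposited tables. All 10 had a fragment count per kilobase, scaled to library size (FPKM), above 0 in both libraries, as did 24454 genes in all. The group was chosen on pathway membership and from FIN56 to DMSO values of the same libraries that were already known, in particular the low value of SCD. Every ratio below is therefore a description and carries no test.

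HSC-3 cells are an established line derived from a human squamous cell carcinoma of the tongue. One library was made from HSC-3 cells given the vehicle, DMSO at 0.1%, and 1 from HSC-3 cells given FIN56 at 1 µM for 48 h. The exposure time is labelled for the FIN56 library only, and both cultures were grown in DMEM with serum. FIN56 is a small molecule that promotes loss of the lipid peroxide reductase GPX4 and so induces ferroptosis. Ferroptosis is an iron-dependent cell death driven by peroxidation of membrane lipids. The study calls the FIN56 concentration given to these cells sublethal. With 1 library per condition, no difference had a replicate check and no p-value was given. Any other difference between the 2 cultures cannot be told apart from the drug in this design. In bulk RNA, fewer cells of a type and less RNA per cell also cannot be told apart.

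RSEM, which estimates how many reads each gene gave, assigned 70184517 expected counts with DMSO and 73062209 with FIN56, and mitochondrial transcripts took 4.77% and 5.75% of these totals. The labelled cell type was checked against its markers. All 10 squamous markers reached 1 FPKM with either treatment, with KRT5 at 2078.49 and 1646.62 FPKM and TP63 at 85.64 and 92.59 FPKM in DMSO and FIN56. PTPRC and CD3E of leukocytes, COL1A2 of fibroblasts, KDR of endothelium, ADIPOQ and LEP of adipocytes and ALB of hepatocytes had 0 expected counts in both libraries. Other markers on these lists were not at 0. CD68, a lysosomal protein also used as a macrophage marker, had 57.27 FPKM with DMSO and 24.58 FPKM with FIN56. Among the 5 fibroblast markers, which summed to 5.06 and 2.93 FPKM, COL1A1, a collagen gene, had 919 and 562 expected counts and fell from 4.25 to 2.19 FPKM, and LUM had 46 and 45 expected counts. Among the 4 endothelial markers, which summed to 0.08 FPKM with either treatment, VWF had 40.61 and 32 expected counts. The 5 adipocyte and hepatocyte markers summed to 0.11 and 0.04 FPKM. The part of other cells in the ratios below was not tested.

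Fatty acid synthesis starts from cytosolic acetyl-CoA, which ACLY makes from citrate and ACSS2 from acetate. ACACA carboxylates acetyl-CoA to malonyl-CoA, and FASN condenses these units to palmitate. ELOVL6 and ELOVL5 catalyse the first step of further chain elongation, ELOVL6 mainly on saturated and monounsaturated chains and ELOVL5 on polyunsaturated chains. SCD and SCD5 place the first double bond in palmitate and stearate and so make palmitoleate and oleate, whereas FADS1 and FADS2 add double bonds to polyunsaturated chains. Polyunsaturated chains in phospholipids are the main substrate of lipid peroxidation, and monounsaturated chains resist it. Many of these genes are transcribed under the sterol regulatory element-binding proteins (SREBPs), which bind promoters together with partners such as NF-Y and SP1.

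Promoter sequences are shown for SCD, which had the lowest ratio of the 10 genes, for its paralog SCD5, which did not fall, and for ACLY, whose ratio was also near 1. Each is the run of 250 bases ahead of a RefSeq gene start (GRCh38.p14), read 5′ to 3′ on the strand of the gene and lying in no annotated exon. Capitals mark CCAAT boxes (CCAAT or its reverse complement) and GC boxes (GGGCGG or its reverse complement), which are the letters bound by NF-Y and SP1. The SCD stretch is chr10:100346983-100347232 on the plus strand, the SCD5 stretch is chr4:82798797-82799046 on the minus strand and the ACLY stretch is chr17:41919023-41919272 on the minus strand.
SCD: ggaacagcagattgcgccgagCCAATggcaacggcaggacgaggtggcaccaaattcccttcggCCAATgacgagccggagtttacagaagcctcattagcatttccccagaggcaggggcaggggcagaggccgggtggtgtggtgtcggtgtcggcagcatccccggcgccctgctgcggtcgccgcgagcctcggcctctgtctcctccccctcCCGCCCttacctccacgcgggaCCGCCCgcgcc
SCD5: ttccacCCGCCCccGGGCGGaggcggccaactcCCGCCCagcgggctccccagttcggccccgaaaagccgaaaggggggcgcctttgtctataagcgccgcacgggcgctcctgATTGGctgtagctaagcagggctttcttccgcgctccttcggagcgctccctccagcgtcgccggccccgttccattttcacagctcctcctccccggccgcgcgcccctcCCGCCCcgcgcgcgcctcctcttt
ACLY: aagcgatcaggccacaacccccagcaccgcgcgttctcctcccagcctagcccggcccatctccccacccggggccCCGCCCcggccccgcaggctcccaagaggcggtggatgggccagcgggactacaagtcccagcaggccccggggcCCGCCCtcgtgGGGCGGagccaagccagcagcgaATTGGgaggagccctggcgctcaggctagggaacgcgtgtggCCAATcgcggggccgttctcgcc
The SCD stretch held 2 CCAAT boxes, at -229 to -225 and at -186 to -182 bases from the gene start, and 2 GC boxes close to the start. The SCD5 stretch held 1 CCAAT box, at -135 to -131, and 4 GC boxes. The ACLY stretch held 2 CCAAT boxes and 3 GC boxes. In the printed stretches no marked match overlapped another.

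Promoter windows of 300 bases, reaching from 250 before to 50 after a start, were in the RefSeq table for 9 of the 10 genes, in 14 windows, and the gene without one was FASN. Both strands were searched. A CCAAT box lay in a window of 7 of the 9 genes, against 39.7% of 27305 genes with a window. A GC box lay in a window of 8 of the 9, against 48.3% of genes. The E-box CACGTG was matched in ELOVL5 alone, and 8.78% of genes held it. An SRE-like stretch, TCACNCCAC, was matched in none of the 9 and in 1.39% of genes. Genes with several windows have more chances of a match, and a match describes letters and not binding. Sites with other letters or outside the windows were not searched, so a missing match does not show that a site is absent. The genes with CCAAT boxes included SCD, ACSS2 and FADS2, which fell, and ACLY, ACACA, ELOVL5 and SCD5, which did not.

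**Figure D1:**
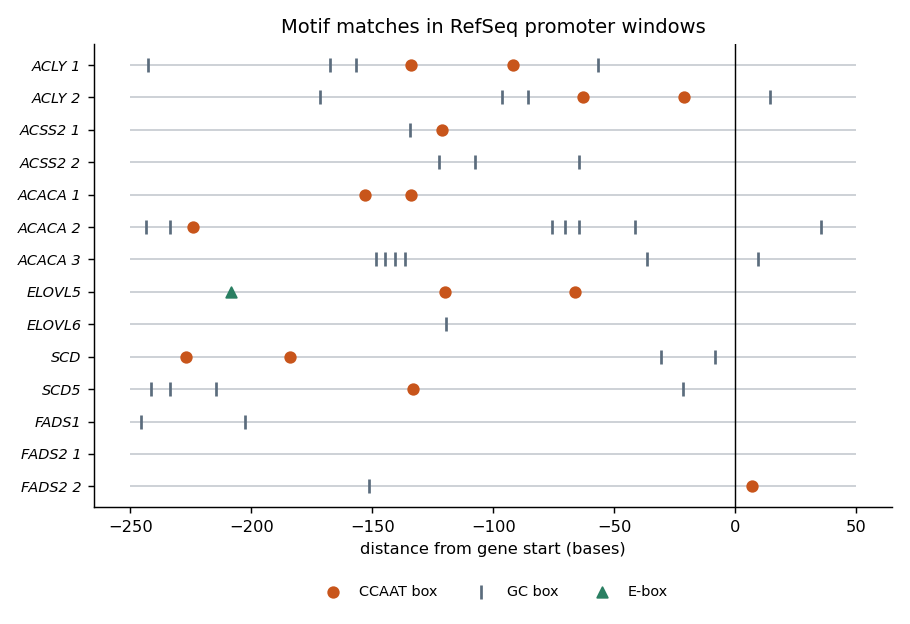
Positions of motif matches (circles for CCAAT boxes, ticks for GC boxes and a triangle for the E-box, each at the middle of the match) in the RefSeq promoter windows, with the distance from the gene start in bases on the x axis and 1 line per window, numbered along the chromosome where a gene has several. CCAAT boxes appear in windows of 7 of the 9 genes and GC boxes in 8 of the 9, in genes that fell and in genes that did not.

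A ratio is the FPKM with FIN56 divided by the FPKM with DMSO. A gene is said to have fallen at 1/1.5 or less and risen at 1.5 or more. The study used the fold of 1.5 for genes up-regulated with FIN56, and 1/1.5 is its mirror, set here. Of the 10 enzymes, 4 fell (SCD, FASN, FADS2 and ACSS2) and 0 rose. Among genes above 0 FPKM in both libraries 17.3% fell and 14.7% rose. These shares include many weakly expressed genes, and all 10 enzymes had at least 1 FPKM in both libraries. Among the 12638 genes at that level 6.77% fell and 3.87% rose. The known values chose the group, so nothing is read from its count of 4. The median log2 FPKM ratio of the 10 enzymes was -0.29, against 0.028 for the 12638 genes, and it was -0.10 without SCD.

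Counting error was expressed as a 95% exact Clopper-Pearson interval of the ratio of expected counts, adjusted for library totals. Such an interval reflects counting alone, because reads lacking molecular identifiers need not stem from separate molecules and nothing measures the spread between cultures. For 3 of the 10 enzymes (SCD, FASN and ACSS2) the whole interval lay at 1/1.5 or below, and for 0 at 1.5 or above. The corresponding shares of the 12638 genes were 4.12% and 1.49%. The interval of FADS2, 0.569 to 0.696, reached across 1/1.5. ACSS2, the gene just inside the fold, had an FPKM ratio of 0.654, and FADS1, the gene just outside, had one of 0.719.

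SCD (ENSG00000099194), the main Δ9 desaturase, lies on chromosome 10 from 100347233 to 100364826 (GRCh38, GENCODE release 44), with 1 annotated transcript of 6 exons and 5245 bases. It had 32732 expected counts, 90.62 FPKM and 135.53 TPM, a length-corrected share of all transcripts, with DMSO. With FIN56 it had 4190 expected counts, 11.14 FPKM and 17.03 TPM. Its FPKM fell by 87.7%, an 8.13-fold lower level, and its count ratio was 0.123 (counting interval 0.119 to 0.127). The FPKM ratio of SCD ranked 1 from the bottom among the 12638 genes with at least 1 FPKM in both libraries, and also among 10327 genes whose expected counts in the 2 libraries added up to 1000 or more. FASN ranked 232 among the 12638, FADS2 681 and ACSS2 771. By TPM, SCD was gene 1107 of the whole table with DMSO and gene 6885 with FIN56.

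**Figure D2:**
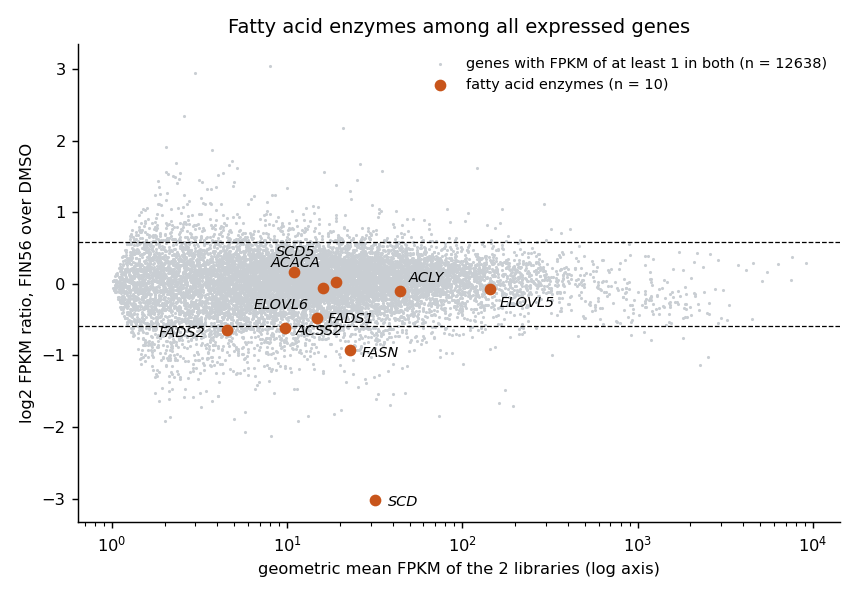
Log2 FPKM ratio (FIN56 over DMSO, 1 library each) against the geometric mean FPKM on a log axis for the 12638 genes with at least 1 FPKM in both libraries (grey) and the 10 enzymes (orange). SCD, at -3.02, lies below every grey point, FASN, FADS2 and ACSS2 lie below the lower dashed line at 1/1.5, and the other 6 enzymes lie between the lines.

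SCD5 (ENSG00000145284), the other human Δ9 desaturase, did not share this fall. Its levels were 10.34 FPKM with DMSO and 11.55 FPKM with FIN56, from 2118 and 2455 expected counts, and its count ratio was 1.11 with an interval of 1.05 to 1.18. The gene lies on chromosome 4 from 82629539 to 82798796. In the GENCODE transcripts the coding sequences of SCD and SCD5 were identical at 67.5% of 979 aligned bases, and the encoded proteins of 359 and 330 residues at 59.1% of aligned residues. They shared 0 stretches of 31 bases, and the expected counts of both genes were whole numbers in both libraries. The processed pseudogene SCDP1 had 4 expected counts with DMSO and 0 with FIN56.

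The shares of the Δ9 desaturases differed between the libraries. SCD made up 89.8% of the summed TPM of SCD and SCD5 with DMSO and 49.1% with FIN56. The TPM of SCD was 8.76 times that of SCD5 with DMSO and 0.964 times with FIN56. Their summed TPM was 151.0 with DMSO and 34.7 with FIN56.

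FASN (ENSG00000169710), the fatty acid synthase on chromosome 17 from 82078338 to 82098294, was second in the order of ratios. It had 15394 expected counts and 31.69 FPKM with DMSO, and 7640 expected counts and 16.70 FPKM with FIN56. The FPKM ratio was 0.527 and the count ratio was 0.477 with an interval of 0.464 to 0.490. ACACA (ENSG00000278540), which makes the malonyl-CoA that FASN uses, had 8272 and 8072 expected counts and 18.86 and 19.26 FPKM. Its FPKM ratio was 1.02, whereas its count ratio was 0.937 with an interval of 0.909 to 0.967, so its direction depended on the measure. By TPM, FASN stood at 1.68 times ACACA with DMSO and at 0.867 times with FIN56.

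The acetyl-CoA suppliers also parted. ACSS2 (ENSG00000131069), the acetate-dependent synthetase, had 1789 expected counts and 12.10 FPKM with DMSO and 1053 expected counts and 7.91 FPKM with FIN56. Its count ratio was 0.565, with an interval of 0.524 to 0.611. ACLY (ENSG00000131473), ATP citrate lyase, had 45.80 FPKM with DMSO and 42.64 FPKM with FIN56, an FPKM ratio of 0.931. The count ratio of ACLY was 0.920, with an interval of 0.898 to 0.943.

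Neither elongase reached the fold. ELOVL5 (ENSG00000012660), the most abundant of the 10 enzymes by TPM in both libraries, had 25785 and 25903 expected counts and 221.56 and 215.08 TPM with DMSO and FIN56. ELOVL6 (ENSG00000170522), which lengthens palmitate to stearate, had 5646 and 5997 expected counts and 24.27 and 23.95 TPM. The counting interval of ELOVL6, 0.984 to 1.06, included 1. The TPM of ELOVL6 was 0.110 times that of ELOVL5 with DMSO and 0.111 times with FIN56.

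The front-end desaturases are neighbours on chromosome 11, FADS2 on the plus strand from 61792980 to 61867354 and FADS1 on the minus strand from 61799627 to 61829318. Their annotated exons share 490 bases on opposite strands. FADS1 (ENSG00000149485) had 4930.89 expected counts and 17.50 FPKM with DMSO and 3608.07 expected counts and 12.59 FPKM with FIN56. FADS2 (ENSG00000134824) had 977.11 expected counts and 5.66 FPKM with DMSO and 639.93 expected counts and 3.62 FPKM with FIN56. The counts of neither gene were whole, but their sum was a whole number in both libraries, 5908 with DMSO and 4248 with FIN56. Expected counts are not whole where RSEM divides reads between genes, so the split of the pair is uncertain. The summed counts had a ratio of 0.691 with an interval of 0.664 to 0.719. FADS2 held 16.5% of the summed counts with DMSO and 15.1% with FIN56.

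The expected counts of ACLY were also not whole. An lncRNA on the opposite strand, AC125257.2 (ENSG00000274630), shares 156 exon bases with ACLY and had 84.76 and 75.48 expected counts, and ACLY plus this gene gave the whole numbers 13282 and 12718. FADS2 shares 49 exon bases on the same strand with FEN1, a gene with 5886 and 7551 expected counts, and ELOVL6 shares 240 exon bases with the opposite-strand lncRNA ENSG00000288913, which was not analysed here. The other 7 enzymes had whole counts in both libraries.

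**Figure D3:**
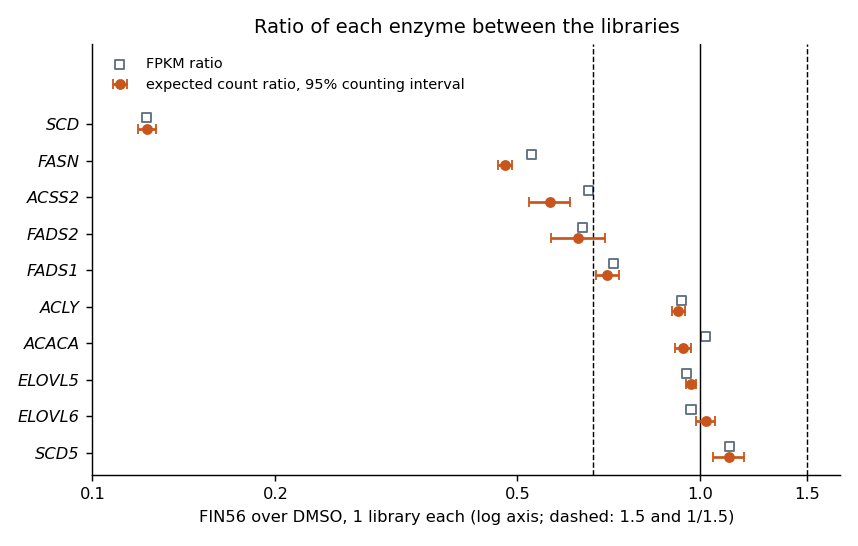
Ratio of FIN56 over DMSO for the 10 enzymes on a log axis, computed from expected counts with a 95% counting interval (filled points and bars) and as FPKM (open squares), with dashed lines at 1.5 and 1/1.5. SCD stands at 0.123, FASN, ACSS2 and FADS2 follow, and SCD5 stands highest at 1.11.

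In the order of count ratios, SCD was lowest, followed by FASN, ACSS2, FADS2, FADS1, ACLY, ACACA, ELOVL5, ELOVL6 and SCD5. The intervals of ACSS2 and FADS2 overlapped, as did those of FADS2 and FADS1, of ACLY and ACACA, of ACACA and ELOVL5, and of ELOVL6 and SCD5. Between SCD and FASN, FASN and ACSS2, FADS1 and ACLY, and ELOVL5 and ELOVL6 the intervals did not overlap. The widest step in the order was that from SCD, with an upper bound of 0.127, to FASN, with a lower bound of 0.464.

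The gene length that enters FPKM is an effective one, which RSEM derives per library and which moves with the transcripts in use. The length implied by the deposited counts and FPKM was 5146 bases with DMSO and 5148 bases with FIN56 for SCD, so both ratios of SCD coincided. For FASN the implied length was 6921 and 6262 bases, for ACSS2 2107 and 1822 bases, and for ACACA 6249 and 5736 bases. The FPKM ratios of these 3 genes were accordingly higher than their count ratios. GENCODE lists 13 transcripts for FASN, 24 for ACSS2 and 23 for ACACA. Transcript-level values were not analysed here, and the part of transcript choice in these ratios was not tested.

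As a share of all transcripts, the 10 enzymes together had 593.7 TPM with DMSO and 430.8 TPM with FIN56. SCD accounted for 118.5 of the 162.9 TPM of net loss, which is 72.7%. FASN lost 21.9 TPM. Without SCD, the other 9 enzymes summed to 458.1 and 413.7 TPM, a ratio of 0.903. SCD was second of the 10 by TPM with DMSO, behind ELOVL5, and eighth with FIN56, just below SCD5 at 17.66 TPM. SCD supplied 22.8% of the TPM of the group with DMSO and 3.95% with FIN56.

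**Figure D4:**
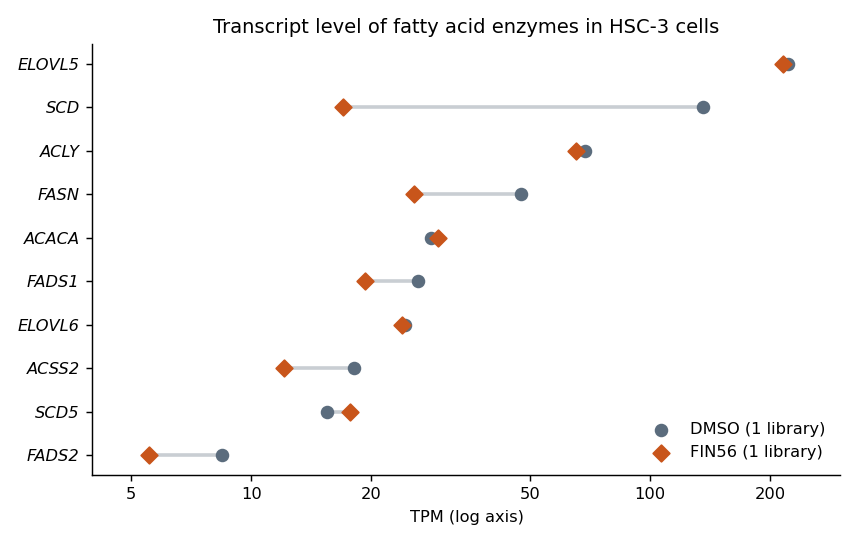
TPM of the 10 enzymes on a log axis, ordered by the DMSO level, with circles for the DMSO library, diamonds for the FIN56 library and a grey line joining the 2 values of a gene. SCD moves from 135.53 to 17.03 TPM, whereas the 2 marks of ELOVL5, ACLY, ACACA and ELOVL6 nearly coincide.

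Other genes of the pathway were read from 8 lists of 91 genes, of which 78 had at least 1 FPKM in both libraries. The lists were also chosen with earlier results of these data known, so nothing is read from a share above that of all genes. Of the 78 genes 14 (17.9%) fell and 0 rose, beside 6.77% and 3.87% of all genes at that level. For 13 of the 78 the whole counting interval lay at 1/1.5 or below, beside 4.12%. The median log2 FPKM ratio of the 78 genes was -0.0061, against 0.028 for all genes at that level, so the genes that fell were a minority of the lists. Over all 91 genes 17 fell and 2 rose. Of the 88 genes above 0 FPKM in both libraries these were 19.3% and 2.27%, beside 17.3% and 14.7% of all genes above 0, so the share that fell was near the background without a minimum level. The genes that rose, ACACB with 146 and 94 expected counts and MLXIPL with 3 and 1, had fewer counts with FIN56 beside an FPKM ratio of 1.5.

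Among the 11 genes of SREBP activation, all at 1 FPKM or more in both libraries, 4 (36.4%) fell and 0 rose. For all genes at that level these shares were 6.77% and 3.87%. INSIG1, which holds the SREBP precursors in the endoplasmic reticulum, had 16.86 FPKM with DMSO and 3.85 FPKM with FIN56, a ratio of 0.228. SREBF1, which encodes the SREBP most tied to fatty acid synthesis, had 34.84 and 13.42 FPKM, an FPKM ratio of 0.385, and its count ratio was 0.325 with an interval of 0.309 to 0.342. LPIN1, a phosphatidate phosphatase, had a ratio of 0.585, and SREBF2, which encodes the SREBP most tied to sterol synthesis, one of 0.655. The count ratio of SREBF2 was 0.726, which is above 1/1.5. The escort protein gene SCAP had 13.10 and 11.88 FPKM, and the protease genes MBTPS1 and MBTPS2 had ratios of 1.07 and 1.37.

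Of 13 other synthesis genes, 3 fell and 1 rose. Among the 9 with at least 1 FPKM in both libraries 2 (22.2%) fell and 0 rose, beside 6.77% and 3.87% of all such genes. SLC25A1, the carrier that exports citrate from mitochondria, had 53.34 FPKM with DMSO and 30.49 FPKM with FIN56, a ratio of 0.572. HSD17B8, a subunit of a reductase of mitochondrial fatty acid synthesis, had 426 and 151 expected counts and a ratio of 0.339. The remaining gene that fell, ACSS3, had 2 and 1 expected counts.

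NADPH is a reductant in chain synthesis. Of 9 genes of NADPH supply, 4 fell and 0 rose. At 1 FPKM or more in both libraries these were 3 of 8 (37.5%) and 0, beside 6.77% and 3.87% of all genes at that level. PGLS and PGD, successive enzymes of the oxidative pentose phosphate pathway, had ratios of 0.611 and 0.657. IDH1, the cytosolic isocitrate dehydrogenase, had 38.27 and 24.91 FPKM, a ratio of 0.651, and ME1, malic enzyme, had 12.70 and 12.85 FPKM. ALDH1L1 had 5 and 1 expected counts.

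The other 11 elongation cycle genes included 0 that fell and 0 that rose. Of these, 9 had at least 1 FPKM in both libraries, a level at which 6.77% of all genes fell and 3.87% rose. ELOVL1, which lengthens very long saturated chains, had 101.19 FPKM with DMSO and 105.99 FPKM with FIN56, and ELOVL7 had the highest ratio of the list at 1.38. Of 11 other desaturases and electron donors 1 fell by FPKM, DEGS2, with 1 expected count with DMSO and 2.06 with FIN56. This was 10% of the 10 genes above 0 FPKM in both libraries, beside 17.3% of all such genes. FADS3, beside FADS1 and FADS2 in the gene family, had 54.66 and 42.62 FPKM, and CYB5A, which passes electrons to SCD, had 15.48 and 18.38 FPKM.

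Of the 9 genes for promoter-binding partners, all above 0 FPKM in both libraries, 0 fell and 1 (11.1%) rose. For all genes above 0 FPKM these shares were 17.3% and 14.7%. The gene that rose by FPKM, MLXIPL, had 3 expected counts with DMSO and 1 with FIN56. NFYA and SP1, whose products bind the CCAAT and GC boxes shown above, had ratios of 1.08 and 0.923. Among 7 genes of the liver X receptors (LXRs), nuclear receptors for oxysterols that also induce SREBF1 and SCD, 2 fell and 0 rose. All 7 had at least 1 FPKM in both libraries, so the 2 were 28.6%, beside 6.77% of all genes at that level. LPCAT3, which places polyunsaturated chains into phospholipids, had 29.56 and 13.46 FPKM, a ratio of 0.455. NR1H3, which encodes LXRα, had a ratio of 0.552. The sterol exporter gene ABCA1, a standard LXR target, had 2.61 and 2.24 FPKM. ABCG1, MYLIP and NR1H2 had ratios of 0.745, 0.780 and 0.945, and SMPDL3A had one of 1.21. The median log2 FPKM ratio of the 7 genes was -0.36.

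**Figure D5:**
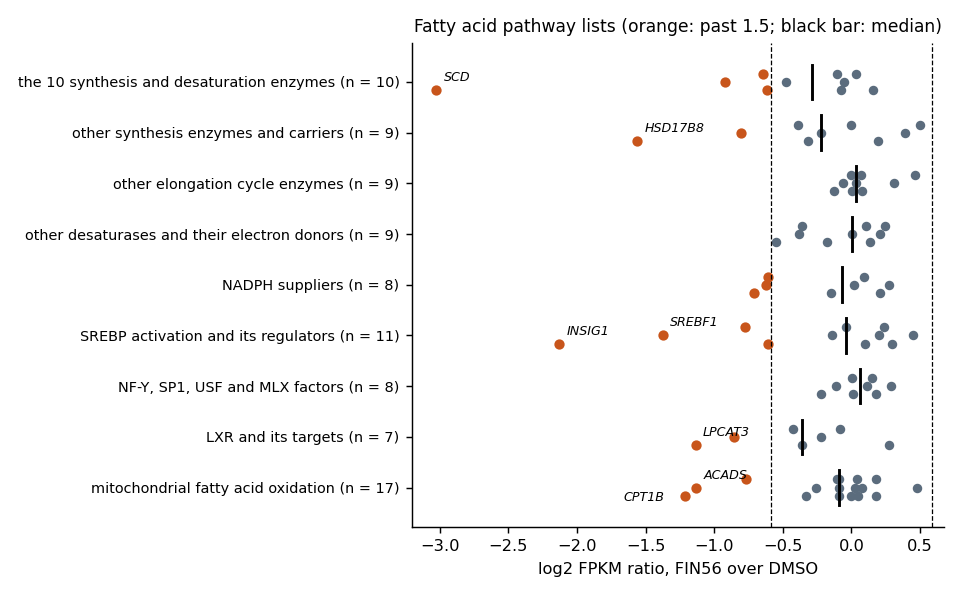
Log2 FPKM ratio (FIN56 over DMSO) of the genes with at least 1 FPKM in both libraries, 1 row for the 10 enzymes and 1 for each pathway list, with genes past 1.5 or 1/1.5 in orange, dashed lines at those folds and a black bar at each median. The genes below -1 are SCD, INSIG1, HSD17B8, SREBF1, CPT1B, LPCAT3 and ACADS. The list medians lie from -0.36, for LXR and its targets, to 0.063.

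The genes with FPKM ratios closest to that of SCD, over the 2 libraries and among those 10327 genes, included INSIG1, AL161431.1, IGFBP3 and MXD3. None of these was near it, since the distance on the log2 scale was 0.89 for INSIG1 and 1.23 for MXD3. IGFBP3, a carrier of insulin-like growth factors, had 34.90 FPKM with DMSO and 9.90 FPKM with FIN56, a ratio of 0.284. The lncRNA AL161431.1 had a ratio of 0.279 and MXD3, which encodes a MAX-binding factor, one of 0.288.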

How the data were processed

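The data were 1 DMSO and 1 FIN56 library of HSC-3 cells, prepared with a stranded mRNA kit. The steps are those the study gives for its tumor samples, and the submitters' processing notes name FastQC 0.11.7, STAR 2.6.1a, RSEM 1.3.1 and DESeq2 1.26.0 with GRCh38. The expected counts, FPKM and TPM that the authors deposited per gene are RSEM estimates. Expected counts are not normalized, FPKM is scaled for library size and effective length and rounded to 2 decimals, and TPM gives every library the same sum. The deposited rlog values are on a log2 scale and draw the libraries together. Whether strand was used in counting is not given in the sources used here.

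The 10 genes and the pathway lists were chosen with earlier results of these data known. FPKM ratios were compared with 1.5 and 1/1.5 in whole hundredths, and counting intervals used rounded expected counts and library totals at a level of 95%. Pathway genes were named where they passed the fold with a summed expected count of 100 or more, up to 4 a list, or as defining genes of a list. A few genes with fewer counts or within the fold were named after their values were seen. Some genes that meet these rules are not reported here. No test was run. The alternatives were TPM, rlog, counts scaled by edgeR 4.0.16 TMM, DESeq2 1.42.0 median-of-ratios factors or library totals, pseudocounts of 0.1 and 1 FPKM, minimum values, and a fold of 2. The fold calls and counting intervals were checked on counts simulated with counting error alone. Spread between cultures and the other steps were not simulated. Positions and transcripts came from GENCODE release 44, which holds 99.7% of the deposited identifiers, and promoter windows from RefSeq. Python 3.11.15, scipy 1.17.1, pandas 2.3.3, Biopython 1.88 and R 4.3.3 were used.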

Additional observations from a re-analysis of the deposited data

How the results depend on the processing

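No paired analysis was possible because there were only 2 libraries, 1 for DMSO and 1 for FIN56, and no replicate could be left out. SCD had the lowest ratio of the 10 enzymes under every alternative run, from 0.122 to 0.432, the latter with rlog values. SCD, FASN, ACSS2, FADS1, FADS2, ACLY and ELOVL5 stayed lower with FIN56 and SCD5 higher under all 9 alternative settings. Of these settings, the minimum values removed no enzyme and an equal pseudocount cannot change a direction, so they could not alter this. ELOVL5 came as near to 1 as a ratio of 0.996, with rlog values. ACACA and ELOVL6 changed direction between FPKM and expected counts. The 4 enzymes that fell were 1 (SCD) with rlog values and at a fold of 2 by FPKM, and 2 (SCD and FASN) with a pseudocount of 1 FPKM. The fold of 2 was applied to FPKM only, and the count ratio of FASN was 0.477 with an interval of 0.464 to 0.490. With TPM ACSS2 missed the fold. The median log2 ratio of -0.289 was -0.115 with rlog values. Of the other pathway genes, the 17 that fell were 2 with rlog values. The 2 that rose were 1 (ACACB) with TPM or at least 10 expected counts in both libraries. They were 0 with rlog values, either pseudocount or at least 1 FPKM in both libraries. With TMM, median-of-ratios factors or library totals 1 gene rose, but neither ACACB nor MLXIPL did. By library totals their count ratios were 0.619 and 0.320. The gene that rose there was DEGS2, at 1.92 from 1 and 2.06 expected counts, which fell by FPKM. The rlog transformation and a pseudocount shrink ratios by construction. The median log2 ratio of all genes lay between -0.034 and 0.020 under the scalings. Depth limited few values of the enzymes, and the precision between cultures is unknown.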

Other observations

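Mitochondrial fatty acid oxidation, the pathway that consumes what the enzymes above make, was read from 20 genes, of which 17 had at least 1 FPKM in both libraries. Of the 20 genes 3 fell and 0 rose, and the median log2 FPKM ratio of the 17 was -0.088, against 0.028 for all genes with at least 1 FPKM in both libraries. The genes that fell were 15.8% of the 19 genes above 0 FPKM in both libraries, beside 17.3% of all such genes, and 17.6% of the 17, beside 6.77%. CPT1B, the muscle-type carnitine palmitoyltransferase, had 7.51 FPKM with DMSO and 3.24 FPKM with FIN56, a ratio of 0.431. ACADS, the short-chain acyl-CoA dehydrogenase, had 4.95 and 2.26 FPKM, a ratio of 0.457. ECI1, an isomerase needed for unsaturated chains, had 33.47 and 19.62 FPKM, a ratio of 0.586. The more abundant liver-type gene CPT1A, which controls entry of long chains into mitochondria, stood at 21.01 and 29.25 FPKM, a ratio of 1.39. HADHA and HADHB, the subunits of the trifunctional protein, had ratios of 1.03 and 1.13.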
